A study of Mus musculus with 12 samples.

Results

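Among the 9 regulators of messenger RNA decay and stability followed here, Btg1 was the one called different between macrophages polarized with IFNG and with IL4, and it was higher with IFNG in both total and polysome-associated mRNA. That is the result of the fit without a term for the replicate number. With the replicate number as a block Btg2 was also higher with IFNG in both fractions, and Zfp36l1 was lower with IFNG on polysomes. The block also raised the calls over all features, and the pairing of replicate 2 is uncertain. Of 21 other settings of the fit, Btg2 passed in only 2 in each fraction, and Zfp36l1 in 4 on polysomes. The 9 genes are Zfp36, Zfp36l1, Zfp36l2, Zc3h12a, Btg1, Btg2, Tob1, Tob2 and Elavl1, a list of AU-rich element binding, Regnase, BTG/TOB and HuR genes that was looked up by symbol among the 19549 features of the count files. Each was found once, under its own symbol and in no joined feature name, and all 9 passed the filter on low counts (10421 features were tested in all). The cells were macrophages grown from the bone marrow of naive female FVB mice. They were polarized for 4 h with interferon gamma (IFNG, 200 units/mL), the classical stimulus, or with interleukin 4 (IL4, 40 ng/mL), the alternative one. Total mRNA and the mRNA carrying more than 3 ribosomes were sequenced, which gave IFNG total, IL4 total, IFNG polysome and IL4 polysome groups of 3 libraries each. The samples include no unpolarized cells, and the labels give neither the number of mice nor whether replicates came from different cultures. The p-values therefore reflect only how far these libraries spread apart, possibly for technical reasons.

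These genes act on messages at their 3′ ends. The ZFP36 proteins, tristetraprolin (Zfp36) and its relatives Zfp36l1 and Zfp36l2, bind AU-rich elements and recruit the CCR4-NOT complex, which removes the poly(A) tail. In macrophages tristetraprolin restrains the message of the cytokine TNF. Regnase-1 (Zc3h12a) cuts stem-loops in inflammatory messages. BTG and TOB proteins bind the deadenylase subunits of CCR4-NOT and speed the loss of poly(A) tails, and HuR (Elavl1) binds AU-rich elements and stabilizes many of the messages that carry them.

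Total counts were 10443200 to 22014162 in the total mRNA libraries and 2563955 to 8789480 in the polysome libraries, and the 9 genes together took 0.0586 to 0.27% of the reads of a library. In the polysome libraries the single gene Lars2 took 1.78, 12.8 and 29.3% of the counts with IFNG and 5.15, 12 and 18.1% with IL4, against 0.341 to 2% over all total mRNA libraries. Levels are given as CPM, TMM-scaled counts per 1000000 reads, which do not account for gene length. All 9 macrophage markers examined were detected in each group. Their summed level was 12400 to 24300 CPM in IFNG total, 7970 to 13900 CPM in IL4 total, 10400 to 16300 CPM in IFNG polysome and 7820 to 8630 CPM in IL4 polysome libraries. Markers of dendritic cells summed to 8.31 to 26.3 CPM in IFNG total and 0.552 to 1.23 CPM in IL4 total libraries, and to 17.2 to 43.9 CPM in IFNG polysome and 0.681 to 1.13 CPM in IL4 polysome libraries. Of these 6 markers Flt3 had no read in any library, Dpp4 had none in the total or the IL4 libraries, and Clec9a and Ccr7 had none with IL4. Ly6g and Elane, of the neutrophil list, had no read in IL4 total or in either polysome group. Neutrophil markers summed to 10.1 to 33.5 CPM in IFNG total and 1.08 to 4.54 CPM in IL4 total libraries, and to 3.57 to 8.13 CPM in IFNG polysome and 0.545 to 4.16 CPM in IL4 polysome libraries. Megakaryocyte markers (Pf4, Itga2b and Gp9), of which 1 was tested, summed to 336 to 766 CPM in IFNG total and 527 to 1100 CPM in IL4 total libraries, and to 35.9 to 116 CPM in IFNG polysome and 155 to 328 CPM in IL4 polysome libraries. Gp9 had no read in IFNG total or in either polysome group. Itga2b had none in IFNG polysome, where the sum was Pf4 alone. B cell, T and NK cell, and mast cell and basophil markers stayed at or below 6.21, 0.369 and 0.508 CPM in sum, and stromal markers at or below 40.1 CPM. The part of other cell types in the results below was not tested, and in bulk samples fewer cells of a type and less RNA per cell cannot be told apart.

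The comparison of IFNG with IL4 asks how the polarizations differ in their transcriptomes (total mRNA) and translatomes (polysome-associated mRNA). By edgeR's quasi-likelihood test at an adjusted p below 0.05, 1 of the 9 genes, Btg1, was higher with IFNG in total mRNA, as were 7.08% of all features tested. None (0) was lower, as were 3.93% of all features. In polysome-associated mRNA again 1 of 9, Btg1, was higher and 0 were lower, where 7.54% and 6.58% of all features were called. A count of 1 in 9 is close to these shares, so the list as a whole did not stand out. At an unadjusted p below 0.05 the counts were 2 higher and 0 lower in total mRNA (21.5% of all features in either direction) and 2 higher and 1 lower on polysomes (26.9%). DESeq2 called 1 higher and 0 lower in each (13.8% of all features in total mRNA and 18.1% on polysomes). With the replicate number as a block within each fraction, 2 members were higher in total mRNA and 0 lower, where that fit called 10.1% of all features higher and 7.68% lower. On polysomes 2 members were higher and 1 lower, where 11.4% of all features were higher and 11.7% lower. These shares are 800 features lower in total mRNA, and 1188 higher and 1223 lower on polysomes, against 410, 786 and 686 without the block. The median log2 fold change of the 9 genes was 0.55 in total mRNA and 0.50 on polysomes, beside 0.04 and -0.06 over all features tested.

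**Figure D1:**
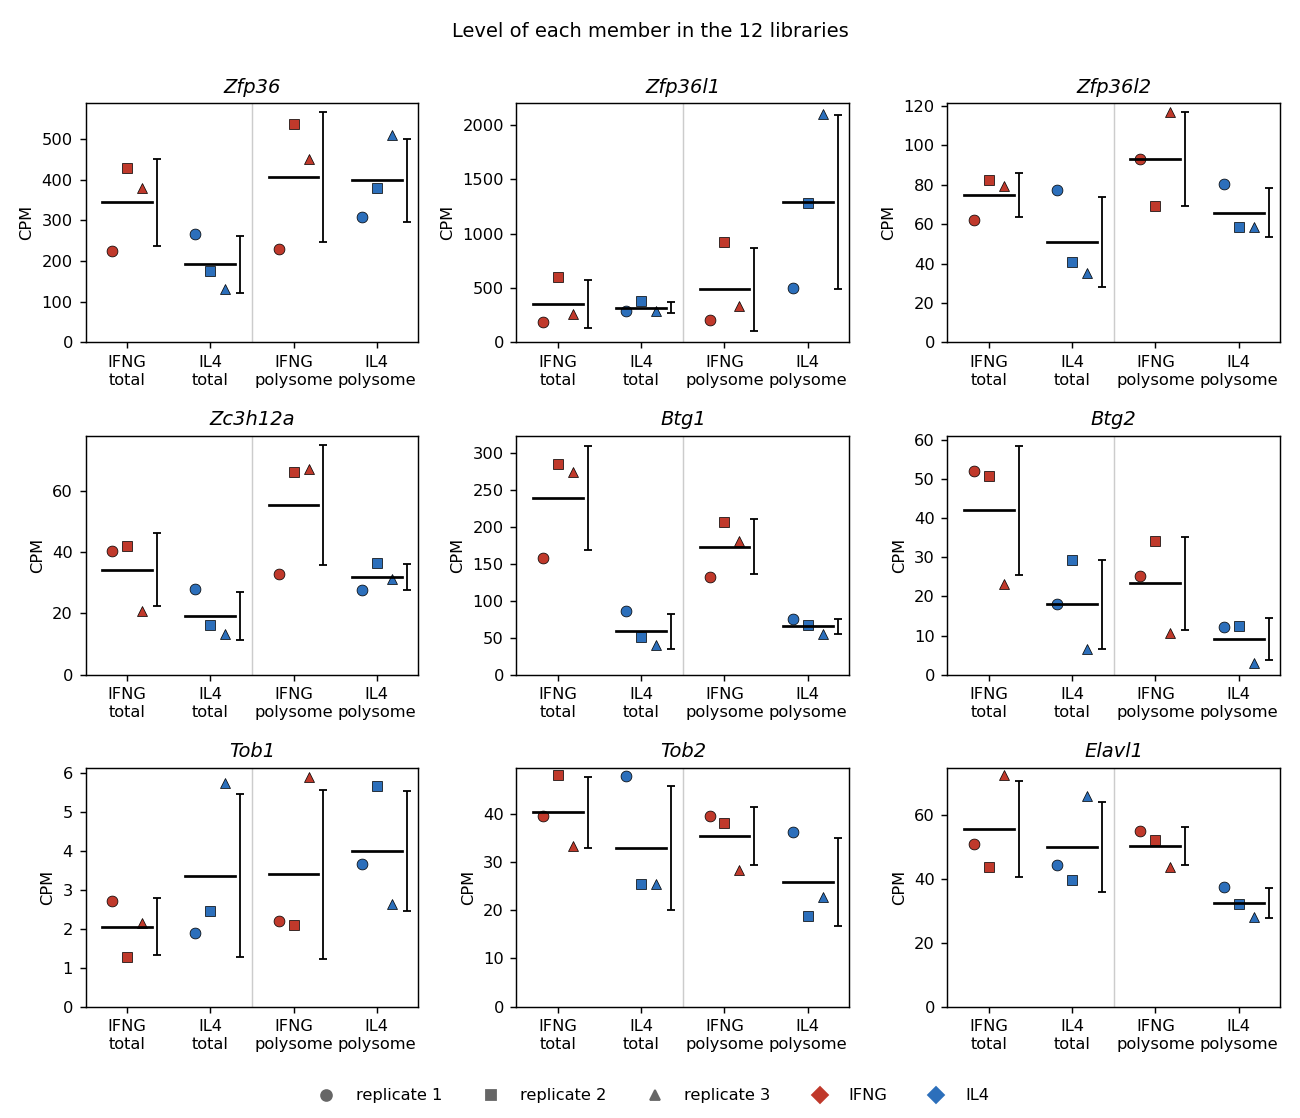
CPM of the 9 genes (vertical axes, linear from 0) in the 12 libraries, by group; each point is a library, its shape the replicate number, the horizontal bar the group mean and the error bar 1 SD (n = 3). The Btg1 libraries with IFNG (132 CPM and above) lie above all those with IL4 (85.4 CPM and below) in both fractions, and the 3 Zfp36l1 libraries of the IL4 polysome group spread from 497 to 2098 CPM.

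Btg1 (chromosome 10, 96617001 to 96622813, build GRCm38, equivalent to mm10) encodes an antiproliferative protein that binds the CCR4-NOT deadenylase. It measured 157, 285 and 274 CPM in the IFNG total libraries, against 85.4, 50.5 and 40.4 CPM in the IL4 total libraries. The means were 239 ± 70.9 CPM with IFNG and 58.8 ± 23.6 CPM with IL4 (SD, n = 3 each). The groups did not overlap, and each IFNG library was higher than the IL4 library of the same replicate number, by 0.88, 2.49 and 2.76 in log2 CPM. The fitted log2 fold change was 2.02 (SE 0.42, 95% interval 1.15 to 2.89, adjusted p = 0.00197), a fold of 4.06. The call held in all 21 other settings tried, leaving out each library included, with adjusted p from 1.86e-05 to 0.021. Of all features 13.4% were higher with IFNG without overlap and 12.3% lower. In polysome-associated mRNA Btg1 measured 132, 206 and 180 CPM with IFNG, against 74.8, 66.9 and 54.8 CPM with IL4. These groups did not overlap either, as for 15.2% of all features (16% were lower without overlap). The log2 fold change was 1.40 (SE 0.41, 95% interval 0.54 to 2.26, adjusted p = 0.026). This call did not hold when IFNG polysome replicate 2 (adjusted p = 0.0941) was left out, nor when replicate 2 (0.0898) or 3 (0.112) of the IL4 polysome group was. Over all 21 settings the adjusted p was 0.00488 to 0.112, while the log2 fold change stayed between 1.25 and 1.56. The smaller log2 fold change on polysomes was not called different from that in total mRNA (difference -0.63, 95% interval -1.82 to 0.56).

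The promoters of 4 genes are shown, Btg1 and its paralog Btg2, which had positive log2 fold changes in both fractions, and the relatives Zfp36 and Zfp36l1, whose ratio of reads was higher with IFNG in every same-numbered pair. A positive log2 fold change is not particular to Btg1 and Btg2, since 8 of the 9 genes had one in total mRNA and 7 on polysomes. Nor is the higher ratio particular to Zfp36, since reads of Zfp36l2 and of Btg1 per read of Zfp36l1 were also higher in every such pair. Each promoter is the stretch of 250 bases upstream of the RefSeq start (build GRCm38.p6), read 5′ to 3′ on the gene's strand. Capitals mark every match to a motif searched. Promoter windows were at hand for 8 of the 9 genes, all but Zfp36l2.
Btg1, chr10:96616751-96617000, plus strand: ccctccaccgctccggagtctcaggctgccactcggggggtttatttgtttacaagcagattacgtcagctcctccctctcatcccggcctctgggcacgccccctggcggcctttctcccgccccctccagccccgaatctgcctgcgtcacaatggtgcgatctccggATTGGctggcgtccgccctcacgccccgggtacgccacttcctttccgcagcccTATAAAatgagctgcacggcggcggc
Btg2, chr1:134079156-134079405, minus strand: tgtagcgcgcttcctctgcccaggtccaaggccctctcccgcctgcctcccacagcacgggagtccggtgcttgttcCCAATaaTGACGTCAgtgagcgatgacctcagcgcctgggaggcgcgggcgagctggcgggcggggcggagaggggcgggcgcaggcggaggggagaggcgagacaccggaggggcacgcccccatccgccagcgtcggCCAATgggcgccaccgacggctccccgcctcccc
Zfp36, chr7:28379229-28379478, minus strand: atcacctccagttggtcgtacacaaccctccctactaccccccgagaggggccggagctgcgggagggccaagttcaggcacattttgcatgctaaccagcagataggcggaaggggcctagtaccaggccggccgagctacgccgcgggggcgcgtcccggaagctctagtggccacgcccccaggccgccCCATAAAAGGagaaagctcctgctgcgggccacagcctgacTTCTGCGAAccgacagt
Zfp36l1, chr12:80113014-80113263, minus strand: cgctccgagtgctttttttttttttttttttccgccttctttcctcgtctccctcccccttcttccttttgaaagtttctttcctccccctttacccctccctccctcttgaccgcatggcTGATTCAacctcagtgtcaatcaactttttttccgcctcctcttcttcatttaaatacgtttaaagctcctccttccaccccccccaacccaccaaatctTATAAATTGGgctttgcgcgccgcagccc
The search covered both strands. It took the STAT family site with a spacing of 3 bases, TTCNNNGAA, and the one with a spacing of 4 bases. The other motifs were the interferon-stimulated response core, the cyclic AMP response element TGACGTCA, the AP-1 site TGANTCA, the TATA box TATAAA, the CCAAT box, the CArG box and the kappa B site. In the Btg1 window the matches were CCAAT on the minus strand, 80 bases upstream of the start, and TATAAA 26 bases upstream. The Btg2 window held TGACGTCA 166 bases upstream and CCAAT 173 and 34 bases upstream. The Zfp36 window held the STAT site with a spacing of 3, at 17 bases upstream, and a CArG box 58 bases upstream. In the Zfp36l1 window an AP-1 site stood 129 bases upstream, and TATAAA (29 bases upstream) overlapped a CCAAT match on the minus strand (24 bases upstream). Among all 32851 promoter stretches of this length, 7.02% held a STAT site with a spacing of 3, 5.85% one with a spacing of 4 and 2.98% the interferon-stimulated core. The share was 1.55% for the cyclic AMP response element, 6.75% for the AP-1 site, 12.4% for TATAAA and 33.8% for CCAAT. It was 1.47% for the CArG box and 7.25% for the kappa B site. A match is a description of the letters, and where none was found only these 250 bases lack it.

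Btg2 (chromosome 1, 134074865 to 134079155) is the paralog of Btg1 and a known target of the tumour suppressor p53. It measured 52.0, 50.9 and 23.1 CPM in the IFNG total libraries, against 18, 29.4 and 6.52 CPM in the IL4 total libraries. The groups overlapped through the third replicate, the lowest of its group in each polarization. Every same-numbered pair was higher with IFNG, by 1.52, 0.79 and 1.79 in log2 CPM. Without a term for the replicate number the log2 fold change of 1.23 (95% interval 0.07 to 2.39) did not pass (edgeR adjusted p = 0.199). Deviations of same-numbered IFNG and IL4 libraries of a fraction correlated positively over the 6984 features of at least 10 CPM on average. For replicate 2 the correlation was weak, at 0.153 in each fraction. With the replicate number as a block Btg2 passed at 1.38 (adjusted p = 0.0161, and 0.00611 with the block within each fraction). These were the only 2 of 21 settings in which it passed in total mRNA, with edgeR or DESeq2 adjusted p from 0.00611 to 0.607. Here and below, the block not kept within fractions shares its replicate terms between total and polysome libraries, which the number was not taken to pair. The fits with a block were not repeated with a library left out. On polysomes Btg2 measured 25.1, 34.3 and 10.7 CPM with IFNG, against 12.1, 12.4 and 3.03 CPM with IL4. The log2 fold change was 1.33 (95% interval 0.12 to 2.54, adjusted p = 0.14), and with the replicate block it was 1.38 (adjusted p = 0.0215, and 0.0104 with the block within each fraction). On polysomes too Btg2 passed only in these 2 of 21 settings, with adjusted p from 0.0104 to 0.4. In IL4 polysome replicate 3 the value rested on 8 reads.

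**Figure D2:**
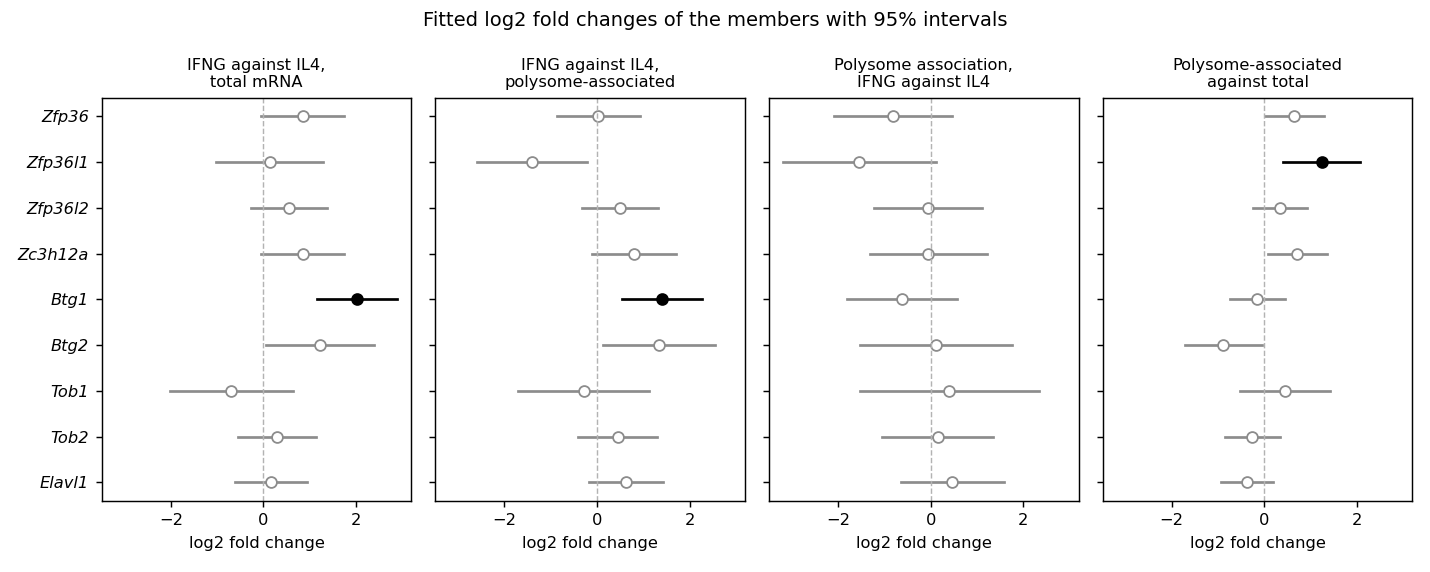
Fitted log2 fold changes (horizontal axes) of the 9 genes (rows) in the 4 comparisons, with 95% intervals as lines; filled black points passed at an adjusted p below 0.05 by edgeR and open grey points did not. Btg1 passed in both comparisons of IFNG with IL4, at 2.02 and 1.40, and Zfp36l1 passed in polysome-associated against total mRNA, at 1.24.

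Zfp36l1 (chromosome 12, 80107760 to 80113013), a ZFP36 relative also known as BRF1, was not called in total mRNA, with 189, 603 and 265 CPM in IFNG and 293, 382 and 286 CPM in IL4 libraries. The log2 fold change was 0.14 (95% interval -1.02 to 1.29, adjusted p = 0.942) and its sign depended on the setting. On polysomes it measured 209, 921 and 333 CPM with IFNG, against 497, 1279 and 2098 CPM with IL4. The groups overlapped, since IFNG polysome replicate 2 lay above IL4 polysome replicate 1, but each same-numbered pair was lower with IFNG, by -1.25, -0.47 and -2.65 in log2 CPM. The log2 fold change of -1.41 (SE 0.57, 95% interval -2.58 to -0.23) did not pass without the block (adjusted p = 0.108). With the replicate block it passed at -1.54 (adjusted p = 0.0228), and with the block within each fraction at -1.45 (adjusted p = 0.0136). It also passed with no filter on low counts (adjusted p = 0.0317), and at -2.25 without IFNG polysome replicate 2 (0.0246). Over all 21 settings the adjusted p was 0.0136 to 0.445. Beside this, the Lars2 share of the same libraries ran from 1.78 to 29.3% with IFNG and from 5.15 to 18.1% with IL4, and with Lars2 left out the log2 fold change was -1.29 (adjusted p = 0.141).

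Zfp36 (chromosome 7, 28376784 to 28379228), tristetraprolin, measured 225, 428 and 380 CPM in the IFNG total libraries, against 268, 175 and 132 CPM in the IL4 total libraries. Replicate 1 ran against replicates 2 and 3, which were higher with IFNG, and the groups overlapped. The log2 fold change was 0.84 (SE 0.44, 95% interval -0.06 to 1.75, adjusted p = 0.28). On polysomes the gene measured 230, 538 and 452 CPM with IFNG and 308, 379 and 509 CPM with IL4, a log2 fold change of 0.03 (95% interval -0.87 to 0.93, adjusted p = 0.978). Zfp36l2 (chromosome 17, 84183924 to 84187947), the remaining family member, measured 62.2, 82.6 and 79.5 CPM with IFNG and 77.3, 40.7 and 35.0 CPM with IL4 in total mRNA. On polysomes it measured 92.9, 69.2 and 117 CPM with IFNG and 80.1, 58.4 and 58.6 CPM with IL4. Its log2 fold changes of 0.55 (95% interval -0.27 to 1.38) and 0.50 (-0.33 to 1.32) did not pass.

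The reads of 2 members can also be set against each other within a library, which needs no scaling between libraries. For each read of Zfp36l1 there were 1.19, 0.709 and 1.44 reads of Zfp36 in the IFNG total libraries, against 0.913, 0.459 and 0.463 in the IL4 total libraries. On polysomes there were 1.1, 0.584 and 1.36 with IFNG, against 0.62, 0.296 and 0.243 with IL4. The ratio was higher with IFNG in every same-numbered pair of both fractions, while the groups overlapped in both. Reads of Btg1 per read of Zfp36l1 were 0.833, 0.473 and 1.03 in IFNG total, against 0.291, 0.132 and 0.141 in IL4 total libraries. On polysomes they were 0.634, 0.223 and 0.541 with IFNG, against 0.15, 0.0523 and 0.0261 with IL4. These groups did not overlap in either fraction. The CPM of Btg1 alone did not overlap either, and Zfp36l1 was lower with IFNG in each polysome pair, so this ratio is no separate support. No test of these ratios was run. Reads of Zfp36l2 per read of Zfp36l1 were 0.33, 0.137 and 0.3 in IFNG total, against 0.264, 0.107 and 0.122 in IL4 total libraries. On polysomes they were 0.445, 0.0751 and 0.35 with IFNG, against 0.161, 0.0457 and 0.0279 with IL4, with overlap in both fractions. The ratios of Zfp36l2 and of Btg1 to Zfp36l1 were, like that of Zfp36, higher with IFNG in every same-numbered pair. Reads of Btg1 per read of Btg2 ran from 3.02 to 11.9 in IFNG total, against 1.72 to 6.19 in IL4 total libraries. On polysomes they ran from 5.28 to 16.8 with IFNG, against 5.4 to 18.1 with IL4, and in neither fraction did they separate the polarizations.

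**Figure D3:**
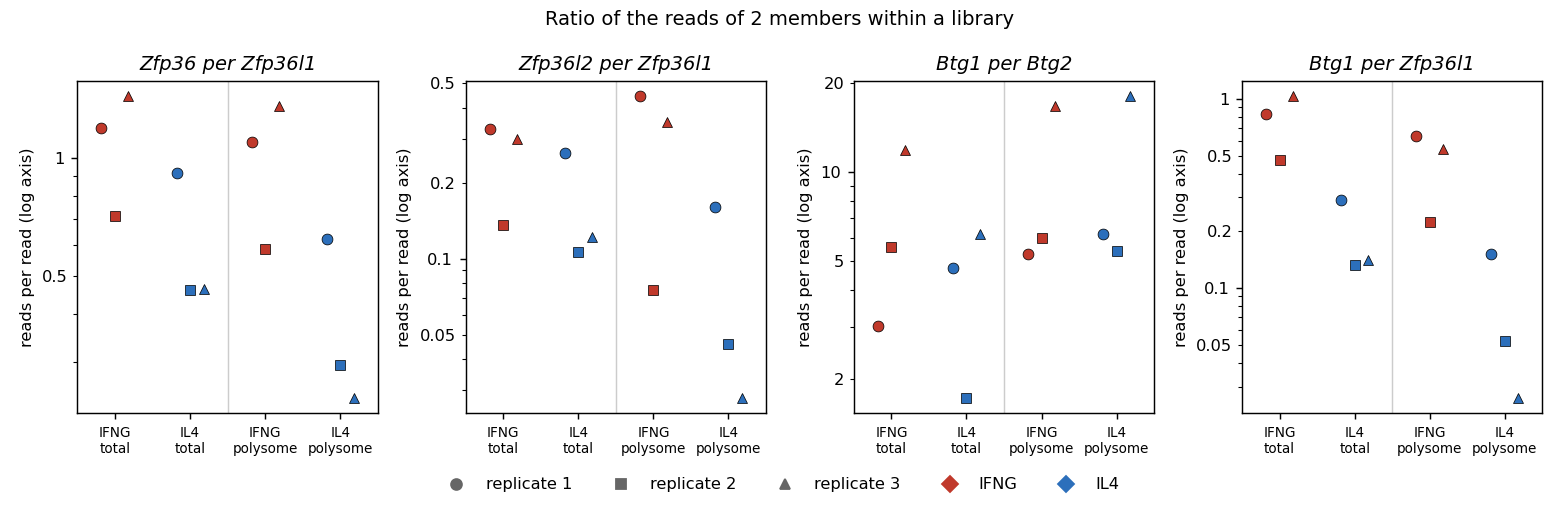
Reads of a gene per read of another gene in the same library (vertical log axes), by group; each point is a library and its shape the replicate number. Btg1 per Zfp36l1 separates IFNG from IL4 in both fractions, with 0.473 to 1.03 against 0.132 to 0.291 in total mRNA, and Btg1 per Btg2 does not. The CPM of Btg1 alone also separates IFNG from IL4 in both fractions.

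Zc3h12a (chromosome 4, 125118414 to 125127881), Regnase-1, measured 40.4, 42.0 and 20.6 CPM in the IFNG total libraries, against 27.9, 16.2 and 13.2 CPM in the IL4 total libraries. On polysomes it measured 32.9, 66.2 and 67.2 CPM with IFNG, against 27.8, 36.5 and 31.4 CPM with IL4. Each same-numbered pair was higher with IFNG in both fractions, yet the groups overlapped. The log2 fold changes of 0.84 (95% interval -0.05 to 1.74, adjusted p = 0.269) and 0.80 (-0.11 to 1.70, adjusted p = 0.249) did not pass, with or without the replicate block.

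Elavl1 (chromosome 8, 4284781 to 4325140), HuR, was not called in total mRNA, with 50.7, 43.6 and 72.5 CPM in IFNG and 44.4, 39.5 and 65.9 CPM in IL4 libraries (log2 fold change 0.16, 95% interval -0.62 to 0.94). On polysomes it measured 54.9, 52.1 and 43.6 CPM with IFNG, against 37.3, 32.2 and 28.0 CPM with IL4. Here the groups did not overlap, and the pairs differed by 0.55, 0.69 and 0.64 in log2 CPM. On polysomes 2 of the 9 genes, Btg1 and Elavl1, were higher without overlap, as were 15.2% of all features (16% were lower without overlap). The fitted log2 fold change of 0.63 (SE 0.38, 95% interval -0.17 to 1.42) did not pass (edgeR adjusted p = 0.315), nor in any of the other 21 settings (lowest adjusted p 0.155).

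TOB proteins bridge the deadenylase and the poly(A) binding protein. Tob2 (chromosome 15, 81848270 to 81858326) measured 33.3 to 48.0 CPM in IFNG total, 25.4 to 47.8 CPM in IL4 total, 28.4 to 39.7 CPM in IFNG polysome and 18.8 to 36.2 CPM in IL4 polysome libraries. Its log2 fold changes were 0.29 (95% interval -0.54 to 1.13) and 0.44 (-0.41 to 1.30). Tob1 (chromosome 11, 94209842 to 94215495) was the member with the fewest reads, 7 to 91 per library. It measured 1.28 to 2.73 CPM in IFNG total, 1.89 to 5.76 CPM in IL4 total, 2.10 to 5.91 CPM in IFNG polysome and 2.65 to 5.67 CPM in IL4 polysome libraries. Its log2 fold changes, -0.70 (95% interval -2.03 to 0.64) and -0.29 (-1.71 to 1.13), did not pass, and the intervals hold changes of either sign.

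The comparison of polysome-associated with total mRNA, averaged over the polarizations, asks which messages are over- or under-represented on more than 3 ribosomes. Zfp36l1 was higher on polysomes, 1 of 9 genes, as were 22.6% of all features by edgeR. None (0) was lower, as were 25.7% of all features. At an unadjusted p below 0.05 the counts were 3 higher and 1 lower (55% of all features in either direction), and DESeq2 called 1 higher and 0 lower (51.4%). The replicate number was not taken to pair polysome with total libraries. Deviations of same-numbered libraries of a polarization correlated at -0.0732 to 0.43, which is mixed, since not all were above 0.1. Differences between same-numbered libraries are therefore only a description here. Zfp36l1 was higher on polysomes than in total mRNA for each number, by 0.15, 0.61 and 0.33 in log2 CPM with IFNG and by 0.76, 1.74 and 2.88 with IL4. The log2 fold change was 1.24 (SE 0.40, 95% interval 0.41 to 2.07, adjusted p = 0.0144). Leaving out IFNG polysome replicate 2 (adjusted p = 0.0921) or IL4 polysome replicate 3 (0.0577) ended the call, and over all alternatives the adjusted p was 0.00138 to 0.0921. Zc3h12a measured 32.9, 66.2 and 67.2 CPM in IFNG polysome, against 40.4, 42.0 and 20.6 CPM in IFNG total libraries, and had a log2 fold change of 0.71 over both polarizations (95% interval 0.08 to 1.34, adjusted p = 0.0587). For Zfp36 the log2 fold change was 0.65 (0.01 to 1.29, adjusted p = 0.086). For Btg2 it was -0.89 (95% interval -1.72 to -0.06, adjusted p = 0.0717), and all 6 differences between same-numbered libraries were negative, at -0.56 to -1.23 in log2 CPM. For Zc3h12a replicate 1 ran the other way, at -0.30 with IFNG and -0.0061 with IL4 in log2 CPM, while the other numbers were higher on polysomes. Of 20 other settings Zfp36 passed in 1, Zc3h12a in 4 and Btg2 in 6. Those of Btg2 include the fit with the Lars2 counts left out (edgeR adjusted p = 0.0385). The other members, Btg1 (-0.15), Zfp36l2 (0.34), Tob1 (0.44), Tob2 (-0.26) and Elavl1 (-0.38), did not pass.

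The difference between the 2 comparisons of IFNG with IL4, an interaction term called polysome association here, asks whether the polarizations differ on polysomes beyond total mRNA. With edgeR 0 of 10421 features (0%) and 0 of the 9 genes were called in either direction. At an unadjusted p below 0.05 there were 176 features (1.69%) and 0 of the 9 genes, and DESeq2 called 1 feature (0.0096%) and 0 of the 9 genes. Zfp36l1 had the interaction farthest from 0 among the 9 genes, at -1.54 (SE 0.79, 95% interval -3.19 to 0.11), followed by Zfp36 at -0.82 (-2.09 to 0.46). The intervals of the others, from -1.82 at the lowest (Btg1) to 2.35 at the highest (Tob1), leave differences of either sign possible.

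Genes whose levels followed Btg1 most closely were sought by the correlation of log2 CPM over the 12 libraries. The search took 6316 other genes of at least 10 CPM on average, without joined names and predicted genes (Gm numbers and Rik names). The closest were Serpina3i, a serine protease inhibitor family gene, with Pearson r = 0.945, Lrrc4 with r = 0.944 and Acod1, the enzyme that makes itaconate, with r = 0.94. These values describe libraries that share their groups and preparations, and carry no test. Serpina3i and Lrrc4 were low with IL4, at 1.83 ± 1.21 and 0.28 ± 0.32 CPM in IL4 total libraries. In IL4 polysome libraries they averaged 1.58 ± 0.86 and 0.93 ± 0.21 CPM. Acod1 measured 1256 ± 283 CPM in IFNG total and 14.4 ± 9.92 CPM in IL4 total libraries (mean ± SD, n = 3). On polysomes it measured 1612 ± 165 CPM with IFNG, against 24.5 ± 20.7 CPM with IL4.

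The genes of the machinery that these regulators recruit are set beside the shares of all features called by edgeR, 7.08% higher and 3.93% lower with IFNG in total mRNA and 7.54% higher and 6.58% lower on polysomes. Of 10 CCR4-NOT subunits measured 0 were called by edgeR in either fraction (0 at an unadjusted p below 0.05, and 0 by DESeq2). Cnot9 measured 79.8 ± 16.2 CPM in IFNG total and 89.9 ± 15.6 CPM in IL4 total libraries. Cnot8, a catalytic subunit, measured 61.9 ± 9.63 CPM in IFNG total and 43.6 ± 9.56 CPM in IL4 total libraries. Of 8 other deadenylase and poly(A) binding genes 0 were called in either fraction by edgeR (0 in total mRNA and 1 on polysomes at an unadjusted p below 0.05, and 0 by DESeq2). Pabpc1, the main cytoplasmic poly(A) binding protein, measured 365 ± 214 CPM in IFNG total and 284 ± 56.6 CPM in IL4 total libraries. Pan3 measured 70.6 ± 22.2 CPM in IFNG polysome and 35.1 ± 14.7 CPM in IL4 polysome libraries (adjusted p = 0.142, and 0.0361 with the replicate block within each fraction). Of 14 decapping and 5′ to 3′ decay genes 0 were called in total mRNA by edgeR (1 higher at an unadjusted p below 0.05, and 0 by DESeq2). On polysomes 1 was higher, the decapping enzyme Dcp2, at 26.8 ± 6.34 CPM with IFNG, against 8.99 ± 5.56 CPM with IL4 (edgeR log2 fold change 1.53, adjusted p = 0.034). At an unadjusted p below 0.05 the polysome counts were 2 higher and 1 lower, and DESeq2 called 1 higher. Leaving out replicate 2 (0.0633) or 3 (0.0882) of IFNG polysome, or 2 (0.0908) or 3 (0.149) of IL4 polysome, ended this call. Of 14 exosome genes 0 were called in total mRNA by edgeR (1 lower at an unadjusted p below 0.05, and 1 lower by DESeq2). On polysomes 1 was lower with IFNG, the core subunit Exosc5, at 37.6 ± 5.40 against 119 ± 50.2 CPM with IL4 (log2 fold change -1.66, adjusted p = 0.0184). At an unadjusted p below 0.05, 6 of the 14 exosome genes were lower on polysomes and 0 higher, where 26.9% of all features passed in either direction, and DESeq2 called 2 lower. Leaving out replicate 2 (0.0506) or 3 (0.0813) of IFNG polysome or 3 (0.114) of IL4 polysome ended that call.

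Among the genes of nonsense-mediated decay, which removes messages with early stop codons, the kinase Smg1 was higher with IFNG on polysomes. It averaged 176 ± 36.9 CPM with IFNG, against 60.1 ± 37.7 CPM with IL4 (log2 fold change 1.54, adjusted p = 0.0254). The call ended when replicate 2 of IFNG polysome (adjusted p = 0.0913), or replicate 2 (0.126) or 3 (0.137) of IL4 polysome, was left out, and with the libraries thinned to the shallowest (0.188). Of 18 other regulators that bind 3′ ends 1 was higher in both fractions, Arid5a, which stabilizes Il6 and opposes Regnase-1. At an unadjusted p below 0.05, 4 of these were higher in total mRNA and 5 on polysomes, and DESeq2 called 3 and 2 higher, with 0 lower in each. By edgeR 7.08% of all features were higher in total mRNA and 7.54% on polysomes. Arid5a measured 51.8 ± 10.7 CPM in IFNG total and 9.20 ± 3.08 CPM in IL4 total libraries (log2 fold change 2.49, adjusted p = 0.00148). On polysomes it averaged 40.8 ± 22.9 CPM with IFNG, against 6.76 ± 4.15 CPM with IL4 (log2 fold change 2.63, adjusted p = 0.00148). Its call held in all 21 other settings in both fractions. Of 11 kinases, phosphatases and partners that act on the members 0 were called by edgeR (2 higher and 1 lower in total mRNA and 2 higher on polysomes at an unadjusted p below 0.05, and 1 and 2 higher by DESeq2). The 14-3-3 proteins Ywhaz and Ywhab, which hold phosphorylated tristetraprolin, were not called. Ywhaz measured 539 ± 490 CPM in IFNG total and 347 ± 145 CPM in IL4 total libraries. Ywhab measured 260 ± 139 CPM in IFNG total and 218 ± 43.7 CPM in IL4 total libraries. Of other BTG family genes Btg4 had 0 reads.

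With the replicate number as a block within each fraction, more genes of these lists were called between IFNG and IL4, as were more of all features. That fit called 11.4% of all features higher and 11.7% lower on polysomes, and 10.1% higher and 7.68% lower in total mRNA. On polysomes 5 of 14 exosome genes were then lower. Of 18 other binders of 3′ ends 5 were higher and 1 lower, and of 14 decapping genes 2 were higher and 1 lower. Also higher there were 1 of 10 CCR4-NOT genes, 1 of 8 other deadenylase and poly(A) binding genes (Pan3) and 2 of 11 kinases or partners. In total mRNA 1 exosome gene was lower, 2 other binders of 3′ ends were higher, and 2 kinases or partners were higher and 1 lower.

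On polysomes against total mRNA, where 22.6% of all features were higher and 25.7% lower, 9 of the 18 other binders of 3′ ends were higher and 0 lower. Of the decapping genes 6 were higher and 2 lower, of the exosome genes 6 and 4, and of the nonsense-mediated decay genes 3 and 0. Of the CCR4-NOT subunits 2 were higher on polysomes, Cnot8 among them (log2 fold change 0.67, adjusted p = 0.0373), and 1 was lower. Of the other deadenylase and poly(A) binding genes 2 were higher, Pan3 among them (1.00, adjusted p = 0.0106), and 1 was lower. No gene of any list (0) was called in the polysome association by edgeR, with 0 at an unadjusted p below 0.05 and 0 by DESeq2.

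Of 16 listed messages known to be bound by the ZFP36 family or cut by Regnase-1, 13 were tested, and 6 were higher and 1 lower with IFNG in each fraction, where 7.08% of all features were higher and 3.93% lower in total mRNA, and 7.54% and 6.58% on polysomes. Their median log2 fold change was 1.81 in total mRNA and 1.45 on polysomes, beside 0.04 and -0.06 over all features. With the block within each fraction 8 were higher and 1 lower in total mRNA, where that fit called 10.1% of all features higher and 7.68% lower. On polysomes 7 were then higher and 2 lower, where 11.4% of all features were higher and 11.7% lower. Messages with reads mainly with IFNG were tested through those libraries, so these counts describe the 13 tested and not the list. Tnf measured 1174 ± 564 CPM in IFNG total and 73.8 ± 55.3 CPM in IL4 total libraries (log2 fold change 3.99, adjusted p = 0.000108). On polysomes it averaged 519 ± 192 CPM with IFNG, against 26.1 ± 19.3 CPM with IL4 (log2 fold change 4.29, adjusted p = 6.25e-05). Nfkbiz, which encodes an atypical inhibitor of the NF-kB family, measured 153 ± 68.8 CPM in IFNG total and 8.08 ± 6.72 CPM in IL4 total libraries (log2 fold change 4.24, adjusted p = 7.99e-05). Ptgs2, the inducible cyclooxygenase, measured 37.4 ± 25.8 CPM in IFNG total and 1.16 ± 0.946 CPM in IL4 total libraries (log2 fold change 5.01, adjusted p = 7.91e-05). Il12b, a subunit of interleukin 12, had 286 reads in IFNG total and 0 in IL4 total libraries, at least 122-fold higher against 3 reads over the group. On polysomes it had 311 reads with IFNG and 0 with IL4, at least 70.6-fold higher. The lower gene was Tfrc, the transferrin receptor, at a log2 fold change of -3.07 in total mRNA and -3.24 on polysomes. It lies outside the rule for named genes and was chosen after its values were seen.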

How the data were processed

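Whole-number read counts per gene symbol were deposited by the authors, unnormalized as far as the headers and values show, for 12 libraries in 4 groups. A second column holds TMM-normalized log2 values by the authors, per the file headers, for 11006 of 19549 features; these were not used in the tests. Libraries were made with SmartSeq2, per the labels' protocols. The build was mm10 and the tools HISAT2, HISAT and limma, per the submitters' processing notes, which give no versions. Which counter, strand setting and annotation were used is not given in the sources used here, so reads of overlapping or antisense genes cannot be told apart.

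Features passing filterByExpr (by group) were scaled with TMM, and fitted in 1 quasi-likelihood model of 4 group means over all 12 libraries in R 4.3.3 with edgeR 4.0.16 and limma 3.58.1, with Benjamini-Hochberg adjustment over 10421 features and a threshold of 0.05. The steps were tested on simulated counts. DESeq2 1.42.0 was an alternative. Differences of log2 CPM within pairs use a prior count of 2. Intervals for counts of 0 cover counting error only. The coordinates and promoters are from RefSeq, GRCm38.p6.

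Replicate numbers are shared between groups. Within a fraction, deviations of same-numbered IFNG and IL4 libraries from their group means were correlated over 6984 features. The values were 0.517, 0.153 and 0.745 in total mRNA and 0.25, 0.153 and 0.352 on polysomes. All were above 0.1, so these numbers were taken to pair IFNG with IL4. Different-numbered libraries correlated at -0.696 to 0.395 in total mRNA and -0.37 to 0.229 on polysomes. Replicate 2 was not matched best by its own number. IFNG total replicate 2 correlated at 0.395 with IL4 total replicate 1. IL4 replicate 2 correlated with IFNG replicate 1 at 0.196 in total mRNA and 0.229 on polysomes. The pairing of replicate 2 is therefore uncertain. The labels do not say what a number marks. The members, lists and tests were chosen with earlier results of these data known. Besides the 9 members, the text names up to 4 called genes of each list by size of change, or its 2 most abundant genes if none was, and the 3 genes most like a called member. Some results of these lists are not reported here.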

Additional observations from a re-analysis of the deposited data

How the results depend on the processing

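Btg1 in total mRNA and Arid5a in both fractions kept their calls in every setting tried, and no member was called in the polysome association under any. The replicate block gave 2 members higher (Btg1 and Btg2) in total mRNA and on polysomes, and 1 lower (Zfp36l1) on polysomes; the replicate block within each fraction, added after the pairing check, gave the same counts of 2, 2 and 1. With it 800 features were lower in total mRNA, and 1188 were higher and 1223 lower on polysomes, against 410, 786 and 686 without. In polysome-associated against total mRNA the replicate block gave 2 members higher (Zfp36l1 and Zc3h12a) and 1 lower (Btg2), where it called 24.1% of all features higher and 26.2% lower. There the number was not taken to pair the libraries, since the same-number correlations were mixed. They were 0.266, 0.43 and -0.0732 with IFNG and 0.0163, 0.396 and 0.0461 with IL4. Those of replicate 2, 0.43 and 0.396, were above the 0.153 of replicate 2 between IFNG and IL4. The replicate block within each polarization gave 1 lower (Btg2), where 25.5% of all features were lower. The block changed no other member's call.

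Thinning to the shallowest library left 271 features lower in total mRNA and 333 on polysomes. Without a filter 1 member was lower on polysomes (Zfp36l1) and 1 on polysomes against total mRNA (Btg2), and the polysome association had 1 feature higher and 4 lower; DESeq2 had 1 lower there. Against total mRNA, the filter at a mean of 10 CPM gave 2 members higher, and leaving out Lars2 gave 1 lower.

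Leaving out 1 library at a time gave 237 to 481 features lower in total mRNA, and 496 to 1001 higher and 351 to 960 lower on polysomes. On polysomes 0 to 1 members were higher and 0 to 1 lower, and against total mRNA 0 to 3 were higher and 0 to 1 lower.

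The following log2 fold changes, none of them called, changed sign, and the cause was not tested. In total mRNA Zfp36l1 was -0.0205 with the filter at 10 CPM, -0.081 with the replicate block and -0.030 with the block within fractions. Pan3 was -0.018 with RLE scaling and DESeq2, -0.13 with the filter, -0.064 thinned, -0.014 with the block and -0.055 with the block within fractions. On polysomes Zfp36 was -0.0069 with the block and -0.032 with the block within fractions, and Tob1 0.26 thinned. Ywhaz and Ywhab were 0.047 and 0.048 thinned, 0.055 and 0.047 without Lars2, and 0.0087 and 0.011 with only the groups compared. In the polysome association Zfp36l2 was 0.00039 with RLE scaling, 0.17 with the filter and 0.069 without Lars2, Zc3h12a 0.20, 0.50 and 0.065 with the filter, thinned and without Lars2, Tob2 -0.12 thinned and Btg2 -0.00019 with the block. Against total mRNA Tob2 was 0.22 thinned.

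Over the fits that leave out 1 library, these log2 fold changes crossed 0 in total mRNA: Zfp36l1 (-0.56 to 0.39), Elavl1 (-0.12 to 0.41), Pabpc1 (-0.15 to 0.69), Pan3 (-0.47 to 0.20), Ywhaz (-0.47 to 1.02) and Ywhab (-0.31 to 0.45). On polysomes they were Ywhaz (-0.55 to 0.26), Ywhab (-0.29 to 0.19), Zfp36 (-0.23 to 0.31) and Tob1 (-0.82 to 0.018). In the polysome association they were Zc3h12a (-0.42 to 0.29), Zfp36l2 (-0.49 to 0.18), Btg2 (-0.44 to 0.57), Tob2 (-0.22 to 0.48) and Tob1 (-0.22 to 0.81), and against total mRNA Btg1 (-0.27 to 0.028). The median of all features moved by up to 0.229 (polysome association, filter at 10 CPM). Tob1, with 7 to 91 reads per library, gave no value with that filter.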
